A study of Mus musculus with 23 samples.

Results

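Pancreatic stellate cells (PSCs) recovered from co-cultures with pancreatic tumour organoids were compared between Egfr knockout (KO) clones and their controls. The RNA-seq libraries were chosen by their titles, which name the sorted fibroblast fraction, and number 12 of the 23 in the series. Of these, 4 are wild type (WT, titled Rosa) and 8 are KO. The controls were 3 libraries of the parent line PSC4, grown with the organoid lines T6-LOH, T12-LOH and T69A, and 1 library of the parent PSC5, grown with T6-LOH. The KO libraries were clones A3 and B4 of PSC4, each with the same 3 organoid lines, and clones C5 and D4 of PSC5, each with T6-LOH. All cells shared Matrigel, a basement membrane extract, with organoids for 3.5 days before they were flow-sorted, so every group here met tumour cells and none was grown alone. Each KO name is a clone, so 8 KO libraries stand for 4 clones. The method of the Egfr knockout is not stated in these sources. Each PSC library has its own pairing of organoid line and PSC line, so each came from its own co-culture. No pairing was repeated, and p-values measure only the spread between these libraries.

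Stellate cells are resident mesenchymal cells of the pancreas that store retinoids and can turn into the fibroblasts of the tumour stroma, where they lay down matrix and secrete growth factors and cytokines. The epidermal growth factor receptor is a receptor tyrosine kinase that binds ligands such as amphiregulin, often shed by neighbouring tumour cells, and signals through the RAS-ERK and PI3K-AKT pathways. Transcription factors, secreted factors and receptors are the classes by which such a signal could alter what a stromal cell is and what it exchanges with the tumour.

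The PSC libraries held between 21823084 and 34828131 estimated counts. Summed over the 20 fibroblast markers listed, PSC libraries held 14260 to 32800 CPM (counts scaled by library size), against 32.8 to 557 CPM in the organoid libraries. Of the 13 stellate markers, 6 passed the count filter of the tests, 8 to 11 had any counts in a given library, and Hand1 was at 0 in all PSC libraries. Their summed level was 1343 to 2115 CPM in WT and 1392 to 2722 CPM in KO. Epithelial markers, 20 in number, summed to 38.2 to 170 CPM in WT and 39.6 to 177 CPM in KO, against 15570 to 20330 CPM in organoids. The median epithelial marker stood at 0.0537 to 0.731% of its organoid level in WT and at 0.0696 to 0.767% in KO, and 5 of 8 KO libraries were above their own control. The 13 immune markers summed to 79.2 to 162.5 CPM in WT and 42.3 to 119 CPM in KO, against 60.9 to 110 CPM in organoids. Cd74, at 10.7 to 106 CPM, and Cd14, at 17.1 to 84.1 CPM, were among them, while Ptprc, Adgre1 and Tyrobp were at 0 in every PSC library. The 10 endothelial markers summed to 2.63 to 5.01 CPM in WT and 1.95 to 9.35 CPM in KO, with Cldn5 at 0. Mitochondrial transcripts took 1.96 to 2.43% of counts in WT and 2.27 to 2.9% in KO, higher than the own control in 7 of 8 KO libraries, and the part of these markers and transcripts in the results was not tested.

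Egfr was lower in every KO library than in the WT library of its own co-culture. In WT it stood at 287 CPM with T6-LOH, 297 with T12-LOH and 328 with T69A in PSC4, and at 427 in PSC5. Clone A3 held 59.7, 105 and 102 CPM with the same organoids in the same order, and clone B4 held 118, 220.4 and 199.7 CPM. Clone C5 held 112 CPM and clone D4 held 352 CPM. The D4 library lay above 3 of the 4 WT libraries, so the groups overlapped, and D4 was low only against its own PSC5 control. With each clone fitted by itself, the log2 fold changes were -1.83 (SE 0.17) in A3, -0.82 (SE 0.16) in B4, -1.93 (SE 0.29) in C5 and -0.28 (SE 0.28) in D4, and edgeR quasi-likelihood adjusted p-values were 0.00376, 0.00579, 0.0293 and 0.633. These 4 effects differed from each other (edgeR adjusted p = 0.00368). A disrupted gene can still make mRNA, so the level is a partial check of the labels.

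Over all clones at once, the question was which genes separate KO from WT cells that had met the same organoid line. Aldoc, Slc2a3, Gda and Glul were lower in KO libraries, and Smad9, Nr1d1 and Pdk4 were higher. In all, 9 of 14107 tested genes passed an adjusted p of 0.05 (0.0638%), 3 higher and 6 lower, and 1937 genes had an unadjusted p under 0.05. Each of the 7 named genes moved the same way in all 8 KO libraries against the control of the same co-culture. These libraries share 4 controls, so they are not 8 separate checks. The genes were also chosen by a fit to the same libraries, so this agreement adds no support. The other two genes that passed, Ccdc36 and Nkx2-3, were not picked by the naming rule and were chosen after their values were seen. This fit takes the libraries of a clone as replicates, and the labels name no clone for the Rosa lines. The loss of Egfr and other differences between the cloned lines and Rosa cannot be told apart here. In bulk libraries fewer cells that express a gene and less RNA per cell cannot be told apart.

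Aldoc encodes aldolase C, an enzyme of glycolysis. It stood at 9.61, 5.33, 13.2 and 13.2 CPM in the WT libraries of T6-LOH, T12-LOH and T69A with PSC4 and of PSC5, and at 0.471 to 2.78 CPM in KO with a median of 0.604. The groups did not overlap, and the highest KO library was D4. The log2 fold change was -3.67 (SE 0.32, edgeR adjusted p = 0.0114), and by clone it was -3.93 in A3, -3.99 in B4, -3.64 in C5 and -2.25 in D4. Per transcript length, the mean level was 4.42 TPM (a level scaled by transcript length and library size) in PSC libraries and 55.3 TPM in organoid libraries. Slc2a3, a glucose transporter of high affinity, stood at 14.5, 11.8, 20.0 and 20.0 CPM in WT in the same order and at 2.55 to 7.77 CPM in KO with a median of 2.81. Here too no KO library reached a WT library. The log2 fold change was -2.13 (SE 0.26, edgeR adjusted p = 0.0347) over all clones, and -1.76, -2.48, -2.78 and -1.90 in A3, B4, C5 and D4.

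Glul, which makes glutamine from glutamate, stood at 81.5, 106, 99.0 and 85.3 CPM in WT and at 50.0 to 67.1 CPM in KO with a median of 57.7, again without overlap. The log2 fold change of Glul was -0.67 (SE 0.08, edgeR adjusted p = 0.0358) over all clones, and -0.72 in A3, -0.76 in B4, -0.35 in C5 and -0.52 in D4, and the last 2 did not pass (edgeR adjusted p = 0.219 and 0.0987). Gda, which deaminates guanine, stood at 275, 262 and 390 CPM in PSC4 WT libraries and 134 CPM in PSC5 WT, against 61.3 to 222 CPM in KO with a median of 157. The overlap came from the lower level of PSC5 as a whole. Over all clones Gda stood at -0.81 on the log2 scale (SE 0.08, edgeR adjusted p = 0.0136), and by clone at -0.76, -0.80, -0.71 and -1.13, all past the threshold.

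Smad9 encodes a SMAD that carries bone morphogenetic protein signals to the nucleus. It stood at 11.5, 4.12, 10.5 and 6.66 CPM in WT and at 6.72 to 31.2 CPM in KO with a median of 23.1. Both KO libraries of T12-LOH, at 9.03 and 6.72 CPM, lay below the highest WT library, yet above their own control. The log2 fold change was 1.30 (SE 0.15, edgeR adjusted p = 0.0259) over all clones, and 1.33 in A3, 1.16 in B4, 1.33 in C5 and 1.72 in D4, each past the threshold, and a difference among the clones was not detected (edgeR adjusted p = 0.315). Nr1d1, a repressor of the circadian clock, stood at 33.2, 17.4, 21.9 and 23.9 CPM in WT and at 31.7 to 81.9 CPM in KO with a median of 56.1. Only the lowest KO library, A3 with T12-LOH, fell within the WT range, and the log2 fold change over all clones was 1.25 (SE 0.16, edgeR adjusted p = 0.0369). Pdk4, a kinase that restrains the entry of pyruvate into mitochondria, stood at 31.9, 15.9, 28.0 and 34.8 CPM in WT and at 28.4 to 82.2 CPM in KO with a median of 55.5. Its log2 fold change over all clones was 0.91 (SE 0.11, edgeR adjusted p = 0.0292). In each of the 3 PSC4 lines the T12-LOH library was the lowest for Smad9, Nr1d1 and Pdk4.

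**Figure D1:**
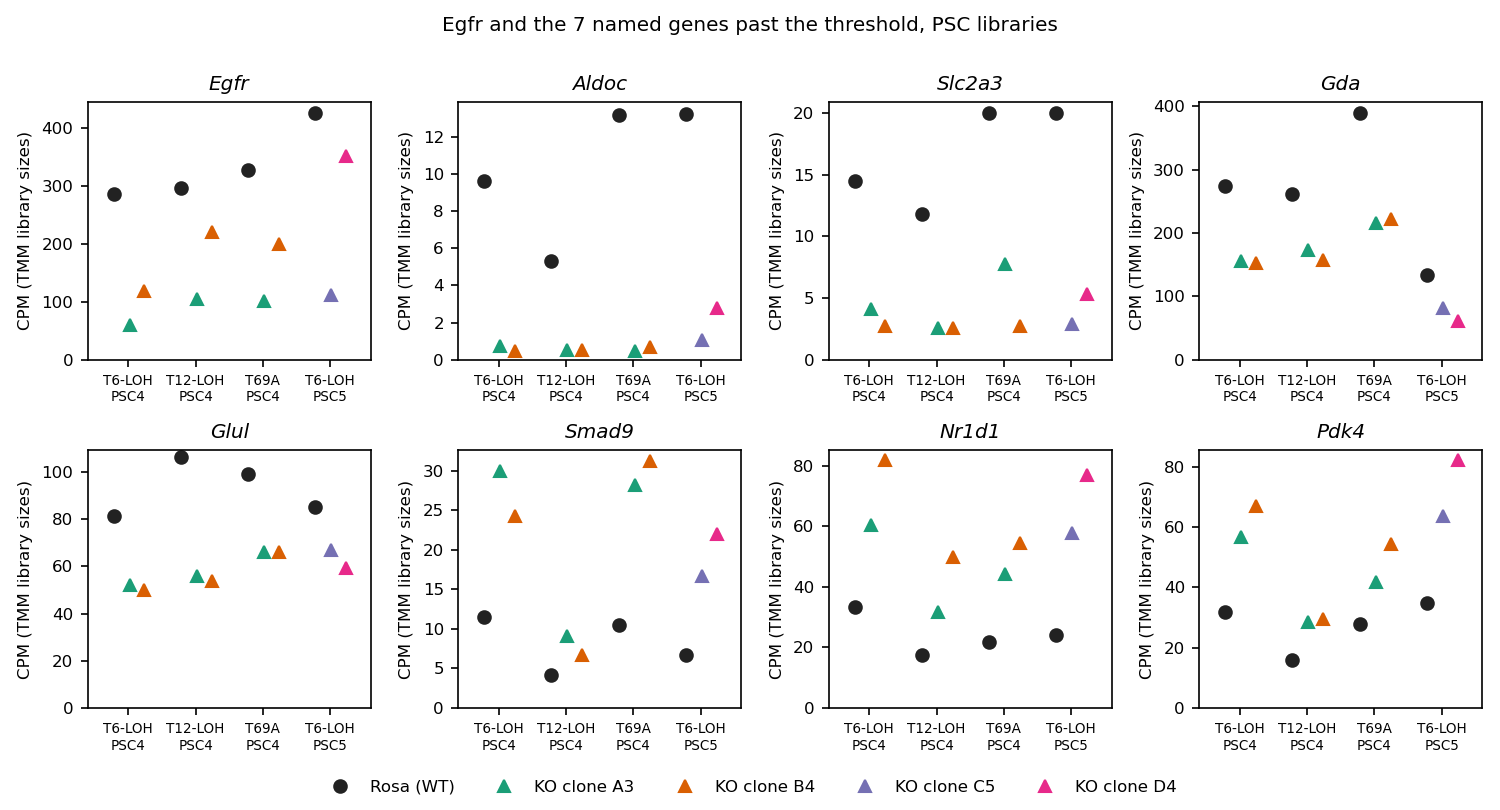
Levels of Egfr and of the 7 named genes past the threshold in the 12 PSC libraries. The vertical axis is CPM from 0, the horizontal axis gives the co-culture, circles are WT (Rosa) libraries and triangles are KO libraries coloured by clone. Aldoc, Slc2a3 and Glul show every KO library below every WT library, while Egfr in D4 reaches 352 CPM.

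The size of these changes moved less than their adjusted p. Over 24 other settings the log2 fold change stayed between -3.95 and -3.38 for Aldoc, between 1.23 and 1.51 for Smad9 and between 1.09 and 1.31 for Nr1d1. Aldoc remained past the threshold in 16 of them, Smad9 in 13 and Nr1d1 in 8. The setting with PSC parent and organoid line as additive terms repeats the main fit, with the same values. Leaving out clone B4 and using PSC4 libraries alone were chosen after the data were seen. No gene passed when counts were summed over the libraries of a PSC line, when PSC line was a random effect in limma, or when the T69A co-culture was left out, and the count was also 0 without WT library T6-LOH with PSC4, WT library T12-LOH or KO library A3 with T6-LOH. It was 1 without WT library T69A, 4 without A3 or B4 with T12-LOH, 5 without B4 with T6-LOH, 20 without C5 or D4, and 51 without the PSC5 control. Without the libraries of clone B4, which stood apart on the first principal component (36.8% of variance), 7 genes passed, and of the 7 named genes Smad9 alone was still among them (edgeR adjusted p = 0.0387).

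To show the sequence at the start of these genes, RefSeq promoter windows of 300 bases (build GRCm38.p6) were read for 10 of 11 genes, namely the named genes above and the leading shared transcription factors described further on, and no window was read for Slc2a3. They were searched on both strands for CACGTG, the palindromic E-box bound by clock and MYC-family factors, and for ACGTG, the core of the hypoxia response element, which every CACGTG contains. Of the 10 genes 4 held ACGTG (40%), against 21.8% of 27025 genes with a window, and 1 held CACGTG, against 8.09%. The windows that held a match are printed 5′ to 3′ on the strand of the gene, with the match in capitals. They lie at chr11:78322823-78323122 (plus strand) for Aldoc, chr19:21472612-21472911 (minus) for Gda, chr11:98775328-98775627 (minus) for Nr1d1 and chr2:71546705-71547004 (minus) for Dlx2.
Aldoc: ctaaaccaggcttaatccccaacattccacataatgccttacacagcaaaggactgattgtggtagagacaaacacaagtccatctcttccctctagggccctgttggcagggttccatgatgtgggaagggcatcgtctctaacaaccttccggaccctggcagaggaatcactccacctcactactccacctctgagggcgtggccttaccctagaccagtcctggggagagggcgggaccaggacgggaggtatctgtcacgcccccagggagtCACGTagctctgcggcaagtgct
Gda: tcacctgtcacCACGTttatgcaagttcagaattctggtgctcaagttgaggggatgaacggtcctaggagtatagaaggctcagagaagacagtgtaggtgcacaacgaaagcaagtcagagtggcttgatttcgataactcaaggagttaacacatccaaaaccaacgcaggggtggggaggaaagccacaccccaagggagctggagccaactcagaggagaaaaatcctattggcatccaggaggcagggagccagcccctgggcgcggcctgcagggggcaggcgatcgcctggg
Nr1d1: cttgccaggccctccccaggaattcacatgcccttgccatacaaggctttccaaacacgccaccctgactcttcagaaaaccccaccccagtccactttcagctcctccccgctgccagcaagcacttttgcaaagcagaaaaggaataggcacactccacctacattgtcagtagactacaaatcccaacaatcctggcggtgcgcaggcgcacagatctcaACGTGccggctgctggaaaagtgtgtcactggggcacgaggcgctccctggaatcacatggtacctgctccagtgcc
Dlx2: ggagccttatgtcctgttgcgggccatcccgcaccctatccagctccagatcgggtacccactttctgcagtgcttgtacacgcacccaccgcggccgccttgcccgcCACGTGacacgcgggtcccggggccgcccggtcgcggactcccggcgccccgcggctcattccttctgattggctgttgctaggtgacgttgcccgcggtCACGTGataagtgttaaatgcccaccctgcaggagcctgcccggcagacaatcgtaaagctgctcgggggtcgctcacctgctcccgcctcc
Counted from the 5′ end, the match begins at base 278 in Aldoc, 12 in Gda and 224 in Nr1d1, and Dlx2 holds CACGTG at bases 109 and 209. A second Aldoc window and the windows of Glul, Pdk4, Smad9, Nr1d2, Grhl1 and Shox2 held neither. A match describes the letters only.

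The next comparison asked how far the 4 clones agreed, with each clone set against the control of its own parent. A3 and B4 share the 3 PSC4 controls, C5 and D4 share the 1 PSC5 control, and no PSC4 contrast shares a library with a PSC5 contrast. Clone A3 differed from its control in 1070 genes (7.58%), 487 higher (3.45%) and 583 lower (4.13%). Clone B4 differed in 7049 genes (50.0%), 3415 higher (24.2%) and 3634 lower (25.8%). Clone C5 differed in 341 genes (2.42%), 117 higher (0.829%) and 224 lower (1.59%), and clone D4 in 439 genes (3.11%), 161 higher (1.14%) and 278 lower (1.97%). C5 and D4 are 1 library each and are assumed to vary as the PSC4 lines do, with 4 residual degrees of freedom, so their counts cannot be ranked against those of A3 and B4. The size of the effect differed among the clones for 6834 genes (48.4%).

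Genes were called shared when the sign was the same in all 4 clones and the adjusted p was under 0.05 in at least 1 clone of each parent. For PSC5 that second condition sets 1 KO library against 1 control library with a spread taken from the PSC4 lines, and fitted with both its clones together PSC5 had 0 genes past the threshold with edgeR, so shared describes these libraries and is not a replicated call in PSC5. Since the choice requires 1 sign over the clones, counts of KO libraries above or below their control add no support for a shared gene. There were 71 shared genes higher in KO (0.503%) and 85 lower (0.603%). By the same call, 49 genes were higher in both PSC4 clones and lower in both PSC5 clones, and 35 were the reverse. Of the 156 shared genes 138 (88.5%) differed in size among the clones, 6 also passed in the comparison over all clones, and the median absolute log2 fold change was 0.84. Past the threshold in all 4 clones were 7 genes with higher levels (Fndc4, Nr1d1, Pdk4, Rab6b, Rora, Slc6a17 and Smad9) and 14 with lower levels (Aig1, Aldoc, Crabp1, Cthrc1, Cyp7b1, Fam69c, Fbln1, Gda, Klhl13, Ociad2, Prokr2, Ptgfr, Pygl and Wnt10a). Some of these 21 names lie outside the rule for named genes and are given after their values were seen. Also past the threshold in all 4 clones were 4 genes higher in PSC4 clones and lower in PSC5 clones, and 1 gene with the reverse. Without the T69A co-culture 5 genes were shared and higher and 22 were shared and lower, of which 5 and 19 were among the 71 and the 85. Without any 1 of WT library T69A, WT library T6-LOH with PSC4 or the 3 A3 libraries, 25 to 44 genes were shared and higher and 29 to 48 shared and lower. The counts called were then 179 to 352 in A3, 109 to 183 in C5 and 172 to 244 in D4. Without B4 with T6-LOH 130 genes were shared and higher, without WT library T12-LOH 156 were shared and lower and A3 had 694, and without B4 with T12-LOH C5 had 538.

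**Figure D2:**
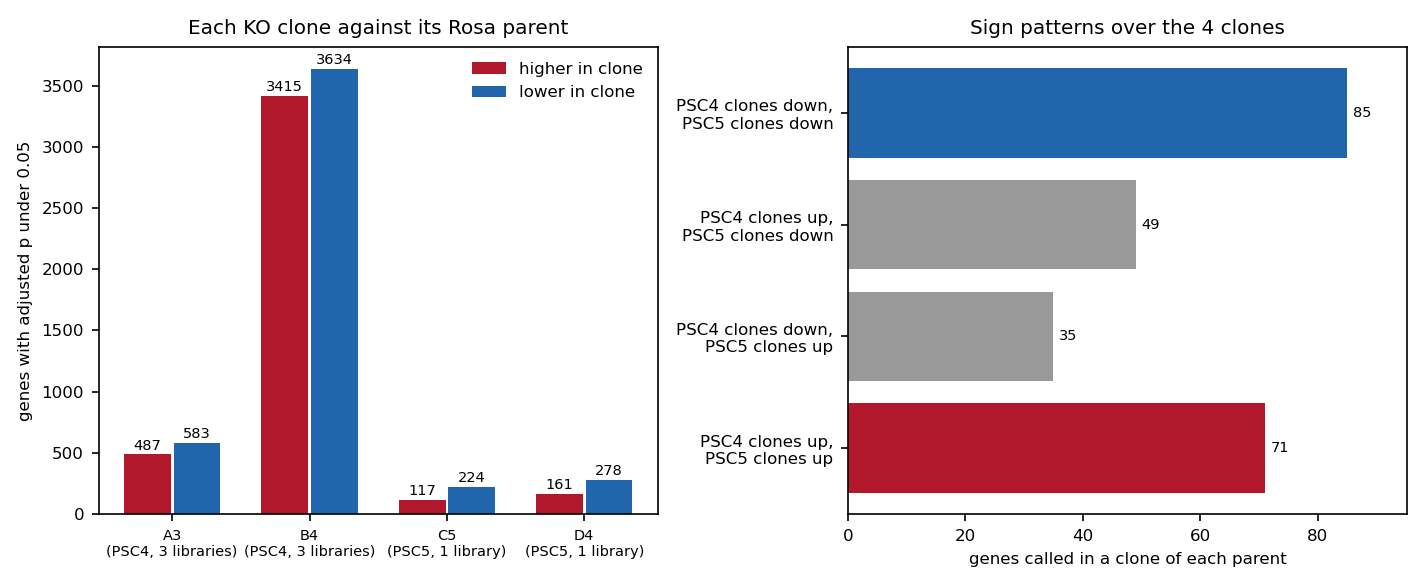
Genes past the threshold in each clone (left, bars for higher and lower, vertical axis in genes) and the sign patterns of genes called in a clone of each parent (right, horizontal axis in genes). Clone B4 has 3415 higher and 3634 lower genes, and the 2 concordant patterns hold 71 and 85 genes against 49 and 35 in the discordant ones.

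Among transcription factors, 473 of the 682 family members were measured, the rest falling under the count filter. Of the 473 measured, 12 were shared and higher (2.54%, against 0.503% of all genes) and 1 was shared and lower (0.211%, against 0.603%). Their median log2 fold change over all clones was 0.099, against 0.0046 over all genes. Over all clones edgeR called 2 higher and 1 lower, of 3 and 6 in all, and in PSC4 1 and 6, of 10 and 40. At an unadjusted p under 0.05, 71 were higher and 33 lower, against 957 and 980 of 14107 genes. DESeq2 called 24 higher (5.07%, against 1.89% of all genes) and 14 lower (2.96%, against 2.36%). Smad9 and Nr1d1 led the shared set. Beside Nr1d1, 2 further nuclear receptors of the clock loop were in it, so that 3 of 33 measured nuclear receptors were shared and higher. Nr1d2, the sister repressor of Nr1d1, stood at 53.4 to 76.9 CPM in WT and 71.4 to 116 CPM in KO with a median of 104. Its clones were close in size, at 0.45, 0.63, 0.64 and 0.42 on the log2 scale, and the difference over all clones did not pass (0.54, edgeR adjusted p = 0.0763). Rora, an activator that competes with Nr1d1 and Nr1d2 for the same DNA elements, had log2 fold changes of 0.41 in A3 and 0.35 in B4 but 1.23 in C5 and 1.20 in D4, all past the threshold. Its WT level was 33.1 to 51.9 CPM in PSC4 and 15.9 CPM in PSC5, and the PSC5 KO libraries stood at 37.1 and 36.4 CPM.

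Dlx2, a homeobox factor, stood at 24.7, 7.97, 17.0 and 9.89 CPM in WT and at 14.6 to 45.0 CPM in KO with a median of 27.3. It was higher than its control in 8 of 8 KO libraries, with log2 fold changes of 0.85, 0.61, 0.74 and 1.51, of which C5 did not pass (edgeR adjusted p = 0.089). Grhl1, a grainyhead factor known from epithelia, was at 0.650 to 3.29 CPM in WT. In KO it reached 32.1, 15.3 and 4.85 CPM in the 3 libraries of B4 and 7.60 CPM in D4, but stayed at 1.23 to 3.58 CPM in A3 and 3.27 CPM in C5. Per length Grhl1 was at 3.52 TPM in PSC and 9.51 TPM in organoid libraries, and over all clones Grhl1 did not pass (edgeR adjusted p = 0.253). Of 16 measured epithelial markers, 1 was higher and 1 lower past the threshold in B4, against 24.2% and 25.8% of all genes. In D4 0 were called, against 3.11% of all genes. The other shared factors with higher levels were Arnt2, Srf, Pbx3, Osr1, Mef2a and Sp2, with differences of 0.27 to 0.65 on the log2 scale over all clones, none of which passed. Shox2, a homeobox factor of limb and heart development, was the shared factor with lower levels, at 59.1 to 113 CPM in WT and 37.3 to 94.5 CPM in KO.

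Among secreted factors, 326 of 545 were measured, 3 were shared and higher (0.92%, against 0.503% of all genes) and 7 shared and lower (2.15%, against 0.603%). Their median log2 fold change over all clones was -0.0075, and 0 of 326 passed over all clones with edgeR, against 0.0638% of all genes. At an unadjusted p under 0.05, 19 were higher and 29 lower, against 957 and 980 of 14107 genes. DESeq2 called 6 higher (1.84%, against 1.89% of all genes) and 16 lower (4.91%, against 2.36%). The 20 measured ligands and antagonists of Wnt and Hedgehog signalling held 2 of the shared genes with higher levels and 2 with lower levels. Frzb, a secreted antagonist of Wnt, stood at 0.731, 1.26, 1.11 and 0.892 CPM in WT. It stood at 1.74 to 2.58 CPM in A3, 13.0 to 21.1 CPM in B4, 6.17 CPM in C5 and 6.48 CPM in D4. No KO library reached down to a WT library, and B4 held several times the level of A3. Wnt4, a Wnt ligand, was higher than its control in 8 of 8 KO libraries, at log2 fold changes of 0.82, 1.15, 0.85 and 1.90. Its level differed between organoid lines, with 0.650 CPM in WT and 1.16 and 2.23 CPM in KO with T12-LOH, against 20.0 CPM in WT and 34.4 and 32.1 CPM in KO with T6-LOH in PSC4. Gdf15, a stress-induced factor of the TGF-beta family, was higher past the threshold in B4 (0.47) and D4 (1.10) and not in A3 (0.35) or C5 (0.058).

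Wnt10a, another Wnt ligand, was lower past the threshold in all 4 clones, by 1.21, 0.72, 2.50 and 1.90 on the log2 scale. Its WT level was 9.16, 3.86 and 9.09 CPM in PSC4 and 48.4 CPM in PSC5, and the KO libraries of PSC5 stood at 8.55 and 12.96 CPM. The fall was thus largest in level where the control was highest, and the test of PSC5 against PSC4 gave an unadjusted p of 0.026 and an adjusted p of 0.985. Fbln1, a glycoprotein of matrix and elastic fibres, stood at 225, 253, 235 and 225 CPM in WT and at 72.9 to 175 CPM in KO with a median of 135. The groups did not overlap, the clones stood at -0.81, -0.67, -1.62 and -0.80 on the log2 scale, all past the threshold, and over all clones the difference was -0.85 (edgeR adjusted p = 0.0935). Cxcl5, a chemokine that draws neutrophils, stood at 460 to 716 CPM in WT. It stood at 339 to 418 CPM in A3 and 296 CPM in C5, and at 25.5 to 86.2 CPM in B4 and 52.1 CPM in D4, so each parent had 1 clone with a small and 1 with a large difference.

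For the remaining named secreted factors the clones differed widely. Angpt1, a ligand of the Tie2 receptor, was lower in B4 by 3.74 and in C5 by 1.69 on the log2 scale, while A3 differed by -0.30 (edgeR adjusted p = 0.268). Dkk3, of the Dickkopf family, was at 0.495 CPM in C5 against 44.8 CPM in its control, and at 36.2 CPM in D4.

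Among receptors, 289 of 516 were measured, and 5 were shared and higher (1.73%, against 0.503% of all genes) and 5 shared and lower (1.73%, against 0.603%). The targeted gene, Egfr, is 1 of the 5 with lower levels. With edgeR 0 of 289 passed over all clones, against 0.0638% of all genes. At an unadjusted p under 0.05, 33 were higher and 35 lower, 1 of the latter Egfr itself, against 957 and 980 of 14107 genes. DESeq2 called 13 higher (4.5%, against 1.89% of all genes) and 18 lower (6.23%, against 2.36%), Egfr again among the latter. Of the 10 shared receptors, Ptgfr, the receptor for prostaglandin F2alpha, was the one past the threshold in all 4 clones, at log2 fold changes of -0.96, -2.37, -1.21 and -2.08. It stood at 18.6, 41.8, 16.7 and 7.73 CPM in WT and at 1.83 to 19.9 CPM in KO with a median of 6.01. Prokr2, a prokineticin receptor outside the families searched, also passed in all 4. Fgfr3 and Fgfr1, both receptors for fibroblast growth factors, went opposite ways. Fgfr3 stood at 9.16, 6.93, 12.8 and 8.92 CPM in WT and at 12.0 to 28.9 CPM in KO, with 8 of 8 libraries above their control (log2 0.97, edgeR adjusted p = 0.091). Fgfr1 stood at 378, 339, 337 and 375 CPM in WT and at 252 to 323 CPM in KO without overlap, a smaller difference of -0.29 (edgeR adjusted p = 0.207). Per length Fgfr1 remained the more abundant, at a mean of 150 TPM over PSC libraries against 8.19 TPM for Fgfr3.

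Unc5b and Neo1, which bind netrins and are known from axon guidance, were both shared and higher. Unc5b stood at 169, 82.6, 183 and 197 CPM in WT and reached 546, 265 and 624 CPM in B4, 286, 127 and 287 CPM in A3, 219 CPM in C5 and 323 CPM in D4. Neo1 stood at 199 to 241 CPM in WT and 223 to 397 CPM in KO. Acvr2a, a type II activin receptor, and the adhesion receptor Adgra3 passed in B4 and D4 with log2 fold changes of 0.25 to 0.66. Neither passed in A3 or C5, at 0.063 and 0.26 for Acvr2a and 0.017 and 0.066 for Adgra3. Ptch1, both receptor and target gene of Hedgehog signalling, was lower in B4 (-1.36), D4 (-0.73) and A3 (-0.49), and C5 stood at -0.13 (edgeR adjusted p = 0.621). Il3ra, the alpha chain of the interleukin-3 receptor, stood at 18.5 to 24.9 CPM in WT and at 10.6 to 18.5 CPM in KO.

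**Figure D3:**
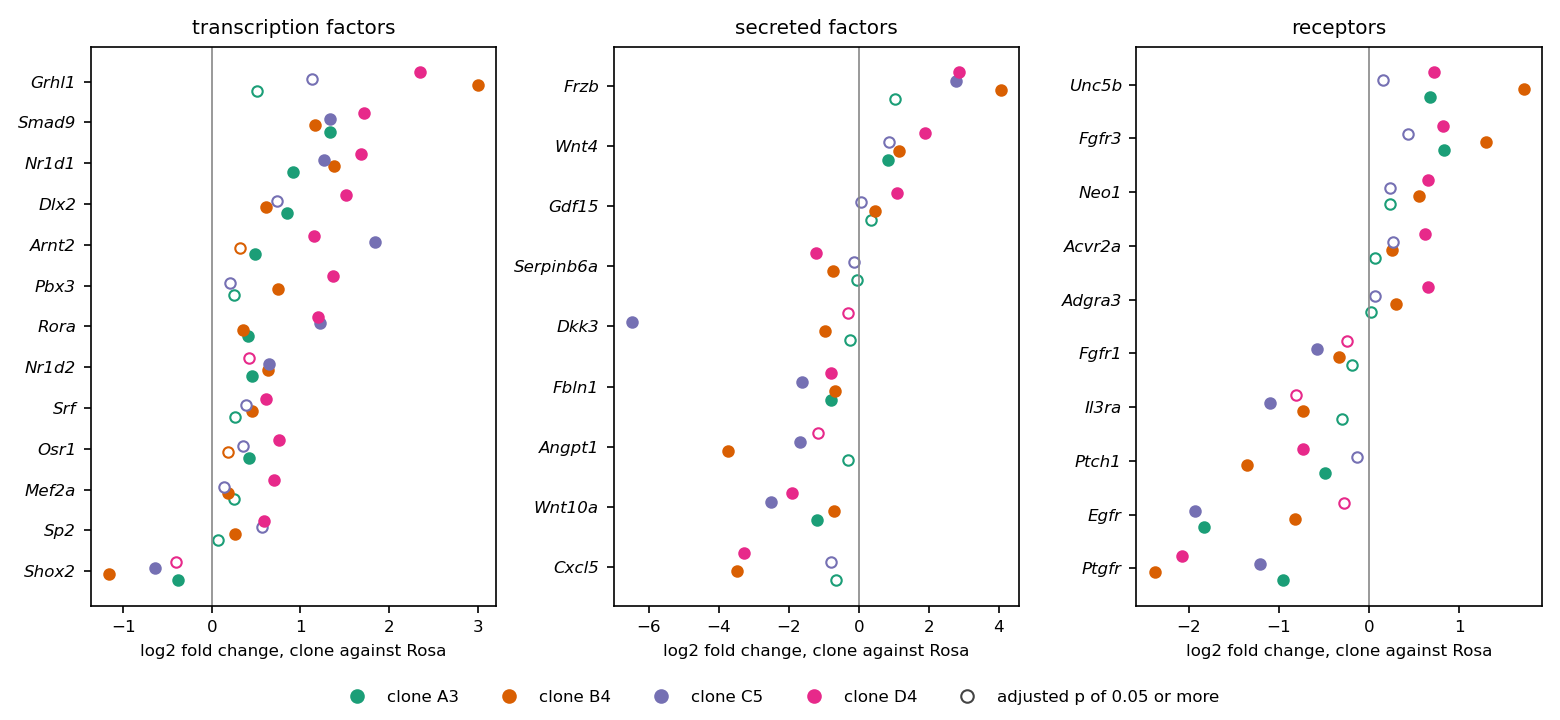
Log2 fold change of the shared transcription factors (13 genes), secreted factors (9 of 10 drawn) and receptors (10), 1 point per clone against the Rosa control of its parent, with filled points past an adjusted p of 0.05. All points of a gene lie on 1 side of 0 because the choice of genes requires it, and the spread between clones of a gene is the part to read, as for Dkk3 and Unc5b.

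Outside these classes, the shared genes with the largest minimum effect over the clones were led by genes nearly silent in 1 or more clones. Cyp7b1, a hydroxylase of oxysterols, stood at 1.81, 4.20, 7.63 and 9.85 CPM in WT. In KO it gave 0 counts in A3 with T6-LOH, 1 count in C5 and 0 counts in D4, against 265 counts in the PSC5 control, and 0.161 to 1.60 CPM in the other libraries. Edil3, a matrix protein that binds integrins, gave 0 counts in B4 with T6-LOH and T12-LOH, 2 counts in C5 and 0 in D4, against 109 in the PSC5 control, while A3 kept 1.68 to 2.94 CPM of 3.82 to 8.88 CPM. Tspan11, a tetraspanin, stood at 12.7 to 50.3 CPM in WT and gave 0 counts in B4 with T6-LOH and T69A, yet 103 counts (4.28 CPM) in D4. Fitted fold changes of such genes depend on the prior count and are left out.

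Cthrc1, a secreted protein of remodelled matrix, stood at 15.5, 3.34, 7.84 and 7.14 CPM in WT. It gave 1 count in each B4 library and 2 counts in C5, and held 0.774 to 4.27 CPM in A3 and 0.789 CPM in D4. The retinoic acid carrier Crabp2 stood at 4.16 to 13.7 CPM in WT and at 0.231 to 5.27 CPM in KO, at log2 fold changes of -1.42 in A3, -3.02 in B4, -4.14 in C5 and -2.39 in D4. Pygl, a glycogen phosphorylase, was lower past the threshold in all 4 clones, by 1.22, 2.13 and 2.86 on the log2 scale in A3, B4 and C5, and it gave 2 counts in D4 against 123 in the control. Gprasp2, which sorts receptors after uptake, and the sialyltransferase St6galnac5 were lower in 8 of 8 KO libraries, past the threshold in A3, B4 and C5.

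Of the shared genes with higher levels, Rab6b, a small GTPase of Golgi traffic, passed in all 4 clones at log2 fold changes of 0.77, 1.47, 1.05 and 0.91. It stood at 27.1, 29.0 and 26.7 CPM in PSC4 controls and 43.3 to 83.9 CPM in PSC4 KO libraries, and at 66.3 CPM in the PSC5 control and 137 and 125 CPM in its clones. Within each parent the groups did not overlap. Pawr, which promotes cell death, stood at 7.11 to 15.6 CPM in WT and 13.2 to 41.6 CPM in KO (log2 1.24, edgeR adjusted p = 0.0763). Daam2, a formin that acts in Wnt signalling, was at 1.34 to 2.56 CPM in WT and at 6.16 to 15.8 CPM in B4, 13.4 CPM in C5 and 6.69 CPM in D4, but at 1.48 to 4.69 CPM in A3. Mrvi1, a substrate of cGMP kinase in smooth muscle, and Plcl1, a phospholipase C relative without catalytic activity, peaked in D4 at 38.4 and 30.5 CPM, against 2.75 and 3.05 CPM in its control.

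The parents were also compared. In PSC4 50 genes passed (0.354%), 10 higher and 40 lower, and in PSC5 edgeR called 0 genes, with 594 at an unadjusted p under 0.05 and 40 called by DESeq2. Of the 50 genes 28 (56%) had the same sign in PSC5, against 55% of all tested genes, and 8 (16%) also had an unadjusted p under 0.05 there with that sign, against 2.69%. Their median log2 fold change was -1.63 in PSC4 and 0.0094 in PSC5. A difference between the parents was called for 0 genes with edgeR, with 683 at an unadjusted p under 0.05 and 91 called by DESeq2. The PSC4 count itself was 750 with DESeq2, 0 without the T69A co-culture, 24 or 8 without A3 or B4 with T69A, and 0 without any 1 of the other 7 PSC4 libraries.

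Pairs of clones across the parents share no library. The sign was the same for 51.6% of genes between A3 and C5, 55.4% between A3 and D4, 52.2% between B4 and C5 and 55.1% between B4 and D4. Pearson correlations of the log2 fold changes, across genes that are not independent, were 0.0766, 0.128, 0.104 and 0.134. Of genes called in both clones of a pair, 72 had the same and 34 the opposite sign for A3 and C5, 75 and 25 for A3 and D4, 152 and 103 for B4 and C5, and 179 and 103 for B4 and D4. The 75 genes of A3 and D4 are 7.01% of the A3 list and 17.1% of the D4 list. In each pair the same sign was the more frequent among genes called in both.

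**Figure D4:**
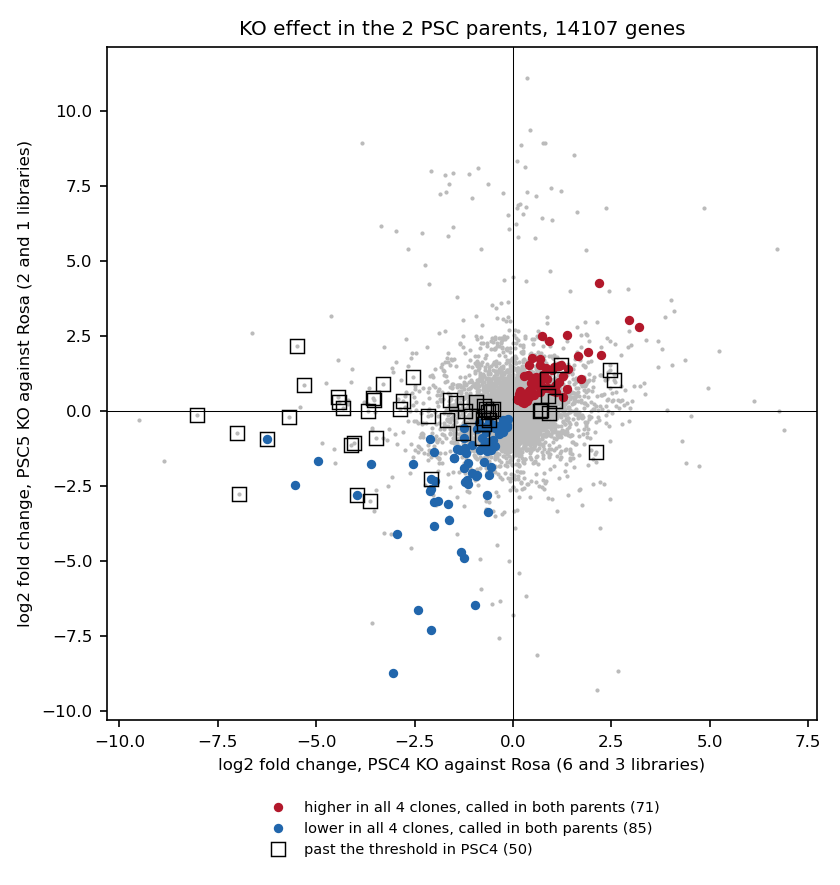
Log2 fold change in PSC5 (vertical axis, 2 KO and 1 WT libraries) against PSC4 (horizontal axis, 6 KO and 3 WT libraries) for 14107 genes. Coloured points are the 71 and 85 shared genes, which lie in 2 quadrants by definition, and squares mark the 50 genes past the threshold in PSC4, many of which lie near 0 in PSC5.

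Counts of gene classes differed from clone to clone. In C5, where 1.59% of all genes were lower and 0.829% higher, 27 of 326 secreted factors were lower past the threshold and 2 higher, and the median of the class was -0.38 against -0.010 for all genes in C5. The collagens had 9 of 34 members lower and 0 higher in C5 with a median of -0.88, while their medians were 0.086 in A3, 0.25 in B4 and 0.060 in D4. The effect differed among clones for 26 of 34 collagens (76.5%, against 48.4% of all genes). Receptors in C5 had 13 of 289 members lower and 0 higher, with Egfr among the lower ones. In B4, where 24.2% of all genes were higher and 25.8% lower, 172 of 473 transcription factors were higher and 96 lower, and their median was 0.14 against -0.0049 for all genes in B4. C5 is a single library, so clone and culture cannot be told apart for it.

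Genes that sit next to Egfr in its pathway were counted from lists. Of 6 measured EGFR ligands 0 passed over all clones with edgeR or DESeq2, with 0 higher and 2 lower at an unadjusted edgeR p under 0.05. Over all 14107 genes, 957 were higher and 980 lower at that unadjusted level, and DESeq2 called 1.89% higher and 2.36% lower. With edgeR 9 of the 14107 genes passed over all clones (0.0638%). A count of 0 in a short list is near that share, so nothing is read from it. In A3 1 ligand was lower (against 4.13% of all genes) and in B4 3 were lower (against 25.8%), and 0 ligands were higher in either. Of 15 measured members of the EGFR family and its restrainers 0 passed over all clones with edgeR, with 2 higher and 2 lower at an unadjusted p under 0.05, while DESeq2 called Egfr and Lrig1 lower. Of 25 ERK feedback and target genes 0 passed over all clones with edgeR, while DESeq2 called Spry1 higher and Dusp1 and Il1rl1 lower. The edgeR fit of PSC4 called 1 of the 25, Dusp1, lower, against 0.354% of all genes called in either direction. Over all clones the list had a median log2 fold change of 0.084, with 4 higher and 3 lower at an unadjusted p under 0.05. In A3 0 were higher and 4 lower, against 3.45% and 4.13% of all genes. In B4 10 were higher and 5 lower, against 24.2% and 25.8%. In C5 0 were called, against 2.42%, and in D4 0 were higher and 1 lower, against 1.14% and 1.97%. The summed level of the 25 genes was 4314 to 5008 CPM in WT and 3612 to 7407 CPM in KO, so the KO libraries spread to both sides of the WT range.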

How the data were processed

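Sorted PSC libraries were grouped by the genotype in the labels, and parent, clone and organoid line were read from the titles. The deposited values are 1 estimated count (expected count) and 1 TPM per transcript, which the authors made with Salmon 1.9.0 on GRCm39 (mm39), as the submitters' processing notes list. The library kit and strand setting are not stated in these sources, so overlapping genes and close copies may share reads. Of 117135 transcripts 115973 were matched by identifier to GENCODE M21, used for names only, and unmatched ones (0.374 to 0.443% of counts) were left out. Estimated counts were summed over 35523 genes and rounded. TPM were used only for mean levels per length.

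All tests used edgeR 4.0.16 (R 4.3.3) with TMM, filterByExpr, robust glmQLFit and glmQLFTest, co-culture as block and Benjamini-Hochberg adjustment over all tested genes. Genotype was 1 effect (7 residual degrees of freedom), 1 effect per parent (6) or 1 per clone (4). Alternatives were DESeq2 1.42.0, limma 3.58.1, other scaling, filters, blocks and left-out libraries. The scripts were tested on simulated counts, drawn independently for each library with a common KO effect. No effect of clone or PSC line was simulated, so error rates under such effects were not tested. Classes are whole symbol families, assigned by symbol alone. Secreted genes of other families, such as Cthrc1, are not counted in them. Named genes are Egfr, up to 10 called and 10 shared genes per direction and up to 6 shared genes per class and direction, protein-coding with a mean log2 CPM of at least 1, ranked by their smallest effect over the clones. One gene that the rule picks is not reported here, though it stays in all counts over classes and over all genes. Members and lists were chosen with earlier results of these data known. No 2 libraries of a group agreed within sampling noise. Each such pair differs in organoid line, PSC parent or clone, so this is not a check of replicates.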

Additional observations from a re-analysis of the deposited data

Results flagged for a closer look

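Effects of the 4 clones differed from each other for 6834 genes (48.4%) by the edgeR joint test, and for 37 of the 43 named genes, with these adjusted p-values. Most of these 43 were chosen from clone fits of the same model, so nothing is read from their share. For Egfr it was 0.00368, for Nr1d1 0.00436 and for Pdk4 0.0413. Among the other transcription factors it was 0.0177 for Dlx2, 0.000668 for Grhl1, 0.00455 for Rora and 0.000441 for Shox2. Among secreted factors it was 0.000653 for Frzb, 0.0462 for Wnt4, 0.0247 for Gdf15, 0.012 for Wnt10a, 0.0105 for Fbln1, 0.00308 for Cxcl5, 0.000165 for Angpt1 and 0.000165 for Dkk3. Among receptors it was 0.00535 for Fgfr3, 0.0181 for Neo1, 0.000134 for Unc5b, 0.0367 for Acvr2a, 0.00353 for Adgra3, 0.000533 for Ptgfr, 0.0165 for Il3ra, 0.0497 for Fgfr1 and 0.00048 for Ptch1. Among other shared genes with higher levels it was 0.00847 for Mrvi1, 0.0416 for Pawr, 0.00222 for Plcl1, 0.00175 for Rab6b and 0.00204 for Daam2. Among those with lower levels it was 0.00156 for Cyp7b1, 0.00024 for Cthrc1, 0.00344 for Tspan11, 0.00129 for St6galnac5, 0.0048 for Gprasp2, 0.0122 for Crabp2, 0.00239 for Edil3 and 0.00515 for Pygl. A difference between PSC5 and PSC4 was called for 0 of the 43 genes with edgeR and for 1 with DESeq2, Rora.

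Single libraries stood far from the rest of their group in 11 of 90 groups tested. Chance flags about 1 in 20 groups of alike libraries, a rate that does not apply here, since each group mixes PSC parents and organoid lines and the KO group also mixes clones. The gap to the nearest library is given as a share of the whole range. Clone D4 was the high KO library for Aldoc (2.78 CPM, gap 0.747), Mrvi1 (38.4 CPM, 0.758) and Plcl1 (30.5 CPM, 0.841). A3 with T12-LOH was high for Angpt1 (30.1 CPM, 0.767) and Ptgfr (19.9 CPM, 0.565), and A3 with T6-LOH for Cthrc1 (4.27 CPM, 0.564). B4 with T69A was high for Cyp7b1 (1.60 CPM, 0.552) and Grhl1 (32.1 CPM, 0.543). Among WT libraries the PSC5 control was high for Rab6b (66.3 CPM, 0.942) and Wnt10a (48.4 CPM, 0.881), and the T12-LOH control for Tspan11 (50.3 CPM, 0.869).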

How the results depend on the processing

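Each of the 7 named genes called over all clones had the same direction in all 24 other settings of that comparison. The setting with PSC parent and organoid line as additive terms is the main fit again. In B4 3415 genes were higher and 3634 lower, but without the PSC5 control 3579 and 3524 and without C5 3535 and 3521. The 9 genes called over all clones became 23 without the low-count filter, 599 with DESeq2 (266 higher, 333 lower), 2 with PSC parent as block, 4 without a block, 0 with counts summed per PSC line, 0 with PSC line as a random effect, 0 without the T69A co-culture and 38 in PSC4 libraries alone, a setting chosen after seeing the data, as was leaving out clone B4 (7). Leaving out 1 library gave 0 to 51. The cause was not tested. Libraries of 1 PSC line correlated at 0.726 in limma, so libraries of a clone are not separate checks. DESeq2 gave 750 genes for PSC4, 40 for PSC5, 91 for the difference between parents, 539 for C5, 711 for D4 and 118 higher and 144 lower shared genes. Without T69A, 0 passed in PSC4, 84 in A3, 4634 in B4, 61 in C5, 35 in D4, 3451 in the difference among clones, and 5 and 22 were shared. Requiring all 4 clones to pass, also chosen after seeing the data, left 7 higher and 14 lower. Leaving out 1 library gave 0 to 51 for PSC4, 0 to 2 for PSC5, 0 to 2 for the difference between parents, 179 to 1299 for A3, 109 to 538 for C5, 172 to 647 for D4, 25 to 130 shared higher and 29 to 156 shared lower genes. Shared genes have no value without a PSC5 library. Another scaling moved the median log2 fold change by 0.0030. Library numbers are unique and pair no samples, and KO and WT libraries were paired by co-culture, the block of the tests. Depth limits genes of a few counts, such as Cyp7b1 and Edil3.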
